A study of Mus musculus with 4 samples.

Results

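Isolated binding sites between protein-coding genes were examined in chromatin immunoprecipitation (ChIP-seq) of MEIS proteins from mouse dorsal root ganglia. They were chosen by values from the peak caller itself. A MACS2 peak was kept where no other peak of its list lay within 10 kb and where its summit, the position of highest signal, fell in no protein-coding gene body. Of 419 peaks at embryonic day 16 (E16), 49 had such a neighbour and 370 were isolated, of which 190 lay outside protein-coding genes (51.4%, exact 95% interval 46.1 to 56.6). Of 375 adult peaks, 35 had such a neighbour and 340 were isolated, of which 188 lay outside protein-coding genes (55.3%, 49.8 to 60.7). The sites described are therefore 378 of the 794 peaks of both lists. The 10 kb limit fell in an empty stretch of both lists. At E16 the largest gap among the peaks left out was 7.85 kb, and the smallest among the sites kept was 14.8 kb, between 2 sites of the Polr3k-Gm40035 interval (folds 5.28 and 4.31). In the adult these gaps were 6.22 kb and 32.6 kb, the latter at the Parp9-Kpna1 site (fold 6.67).

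The ganglia came from C57BL/6 mice at E16 or adult, with 1 immunoprecipitated library and 1 input library (chromatin with no antibody) at each age. The immunoprecipitated libraries were made with a Millipore antibody labelled Meis1/2/3, while the title of the series names Meis2. Sensory neurons are the labelled cell type, but the labelled tissue is the whole ganglion, in which neurons lie among satellite glia, Schwann cells, fibroblasts, blood vessels and immune cells, and no sort is named. The sex, the adult age and the number of animals behind a library are not given in the labels. With 1 library in a group there is no replicate check, so the ages are set side by side with no test between them, and all intervals cover counting error only.

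MEIS proteins belong to the TALE homeodomain transcription factors, which bind DNA together with PBX partners and often with HOX proteins. In the peripheral nervous system MEIS2 is known for its role in the differentiation of touch-sensing neurons. Enhancers can lie far from the gene they act on and can skip the gene nearest to them, so a gene that flanks a peak is named here for position alone and not as a target.

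Sites are named by the protein-coding gene to the left and to the right of the summit, in the order of the mm10 chromosome. Fold enrichment is the authors' own value from MACS2, the signal at the summit over the local background, and can rank peaks within an age but not between ages. The number of fragments at a summit and the local background were recovered from each fold together with its p-value. The genome-wide background, which is the number of fragments that MACS2 expects at any position, was 0.2295 at E16 against 0.0647 for the adult (ratio 3.55). At this background the fewest fragments of a listed peak were 4 at E16 (17.4 times the background) and 3 in the adult (46.4 times), so the least enriched sites that could be listed differed between the ages. MACS 1.4, the other caller used on these libraries, listed a peak of the same age at 181 of the E16 sites and 186 of the adult sites. Sites with few fragments made up most of both lists: 173 of the 190 E16 sites and 141 of the 188 adult sites had fewer than 10.

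Overlap with promoters was limited in advance, because summits inside protein-coding genes were left out by the rule. The share of all listed peaks that overlap a promoter is not given here, so the count is a description only. Among the sites, 2 peaks, 1 at each age, overlapped a RefSeq promoter window (GRCm38.p6, 250 bases before to 50 after a start site), and both windows belonged to long non-coding RNA genes. Their sequences are shown because these are the only promoters in the table that the peaks overlap, 5′ to 3′ on the strand of the gene, with the bases under the peak in capitals. The Gm41028 window (chr13:97053767-97054066, plus strand) lay under the edge of an E16 peak of 6 fragments and fold 5.69, in the interval between 1700029F12Rik and Fam169a. The Gm15564 window (chr16:35981800-35982099, minus strand) lay under an adult peak of 24 fragments and fold 6.67 between Parp9 and Kpna1.
Gm41028: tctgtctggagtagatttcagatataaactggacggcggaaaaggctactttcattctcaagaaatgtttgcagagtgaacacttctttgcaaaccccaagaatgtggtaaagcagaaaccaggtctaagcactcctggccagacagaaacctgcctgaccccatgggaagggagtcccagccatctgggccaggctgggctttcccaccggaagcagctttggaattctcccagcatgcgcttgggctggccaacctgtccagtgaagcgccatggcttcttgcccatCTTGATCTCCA
Gm15564: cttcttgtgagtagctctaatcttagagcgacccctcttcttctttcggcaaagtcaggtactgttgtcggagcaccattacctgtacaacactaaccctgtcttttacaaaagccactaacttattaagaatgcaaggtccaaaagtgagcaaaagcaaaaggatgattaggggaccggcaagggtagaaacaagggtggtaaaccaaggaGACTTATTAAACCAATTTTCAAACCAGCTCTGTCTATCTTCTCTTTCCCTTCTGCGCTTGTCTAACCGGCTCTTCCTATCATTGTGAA
The E16 peak covered 11 bases of its window, and its summit was 152 bp beyond the start site. The adult peak covered 88 bases, with its summit 112 bp beyond the start, on a local background 42.5 times the genome-wide value. A second window of Gm15564, chr16:35981798-35982097, is shifted by 2 bases and not printed, and the peak covered 90 of its bases. Both printed windows were searched on both strands for TGACAG, the MEIS core, and for TGATTGAC, the composite PBX-MEIS site. Neither motif was found in either window or in the shifted one, while 19.2% and 0.770% of all 32851 promoter windows of 300 bases held them. With so few windows nothing is concluded from this. Both summits lay beyond the windows, so the sequence at the summits was not searched.

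Distances to genes were alike at the 2 ages and close to the make-up of the sequence between genes. The median distance from a summit to the nearest protein-coding gene was 83.6 kb at E16 (0.054 to 1789 kb) and 67.2 kb in the adult (0.167 to 1878 kb). Under 10 kb from a gene lay 30 E16 sites (15.8%, 10.9 to 21.8) and 30 adult sites (15.96%, 11.03 to 21.99). At 10 to 100 kb there were 71 E16 sites (37.4%, 30.5 to 44.7) and 79 adult sites (42.0%, 34.9 to 49.4). Over 100 kb from any protein-coding gene lay 89 E16 sites (46.8%, 39.6 to 54.2) and 79 adult sites (42.0%, 34.9 to 49.4). Of the 1659 Mb between the 21887 annotated protein-coding genes, 15.4% of bases are under 10 kb from a gene, 37.3% at 10 to 100 kb and 47.3% over 100 kb. All 6 shares of sites had intervals that held the share of bases.

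**Figure D1:**
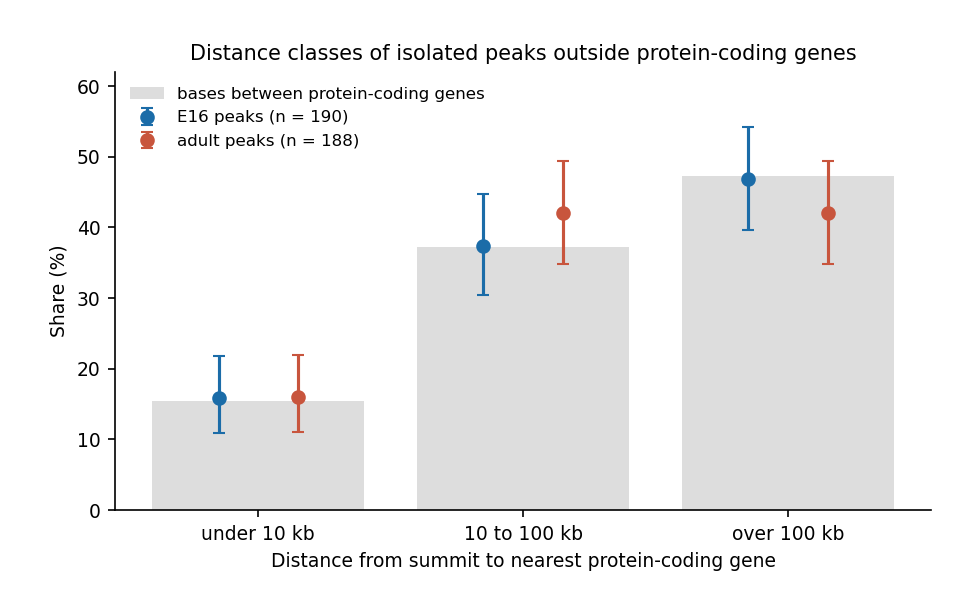
Share of isolated peaks outside protein-coding genes in each distance class (points, with exact 95% intervals, for 190 E16 and 188 adult sites) against the share of all bases between protein-coding genes in that class (grey bars). In each class both points sit near the top of the bar, with the bar inside their intervals.

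Fold enrichment did not follow distance at either age. Spearman's rho between the 2 across sites was -0.05 over the 190 E16 sites and -0.01 over the 188 adult sites, each within 1 library. At E16 the median fold was 5.69 in every class, the value of a peak of 6 fragments on the genome-wide background, of which there were 38. Adult medians were 5.98 under 10 kb, 6.43 at 10 to 100 kb and 5.64 over 100 kb. Adult folds over 10 belonged to 4 of 30, 16 of 79 and 15 of 79 sites, from the nearest class to the farthest. At E16 these counts were 0 of 30, 5 of 71 and 2 of 89.

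**Figure D2:**
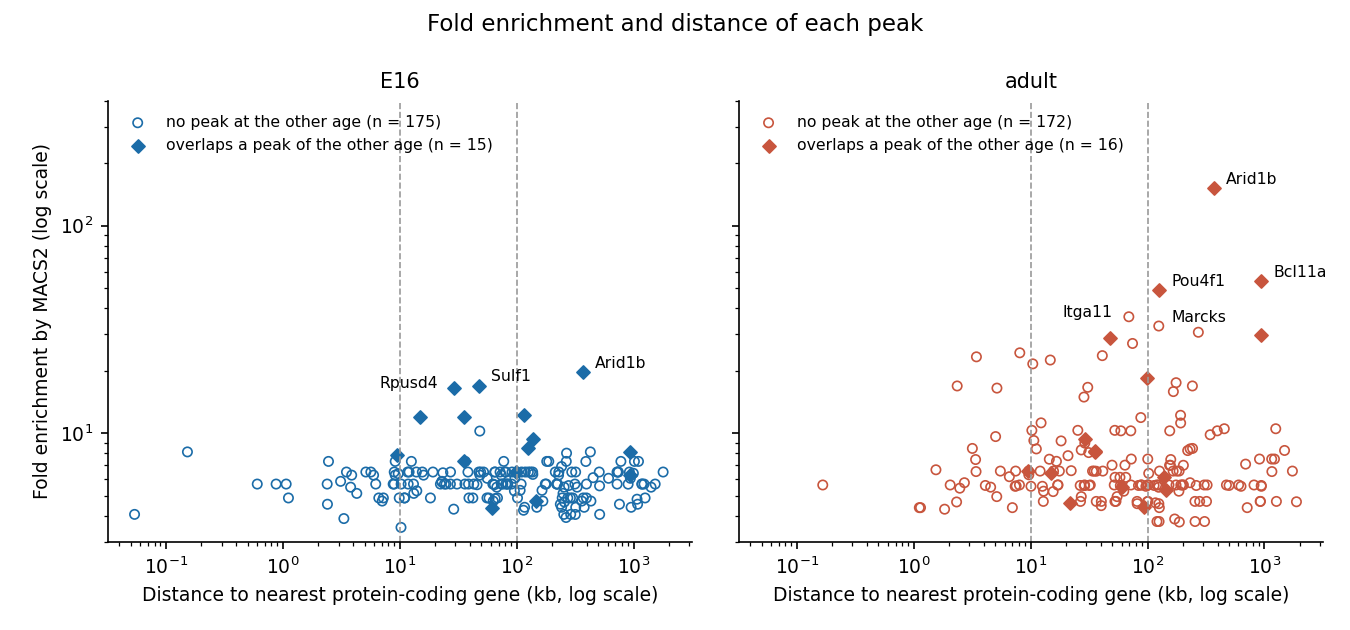
Fold enrichment of every site (log scale) against distance to the nearest protein-coding gene (log scale, dashed lines at 10 and 100 kb), E16 on the left and adult on the right, with filled diamonds for sites that overlap a peak of the other age. Both ages fill the same range of distance, while folds above 20 appear in the adult panel alone, where the highest, near Arid1b, is 152.51.

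The orientation of the flanking genes was also close to that of the gaps. Where the strand was known, the nearest gene turned its 5′ end to the summit at 71 of 143 E16 sites (49.7%, 41.2 to 58.1) and 72 of 149 adult sites (48.3%, 40.1 to 56.6), against 52.9% of bases between genes. Sites lying between 2 genes that both pointed their 5′ ends inward were 26.3% (18.6 to 35.2) at E16 and 24.8% (17.4 to 33.5) in the adult, against 25.6% of bases. Genes of other biotypes, most of them long non-coding RNA genes, held 29 E16 summits (15.3%, 10.5 to 21.2) and 35 adult summits (18.6%, 13.3 to 24.9), against 12.9% of bases. The interval of the adult share began just above that value and the E16 interval held it. The gaps that held sites had a median length of 394 kb at E16 and 344 kb in the adult, while with each base between genes counted once the median was 485 kb. The X chromosome holds 7.54% of bases between genes and carried 4 E16 sites (2.11%, 0.577 to 5.30) and 12 adult sites (6.38%, 3.34 to 10.9). Here the E16 interval ended below the share of bases. The Y chromosome holds 5.33% of bases and carried 2 E16 sites (1.05%, 0.128 to 3.75) and 1 adult site (0.532%, 0.0135 to 2.93), both intervals ending below that share. The part of the animals' sex, which the labels do not give, was not tested.

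Folds were described within each list. The median was 5.69 at E16 (3.52 to 19.6) and 6.13 in the adult (3.74 to 152.51). Folds over 10 were found at 7 E16 sites (3.68%, 1.49 to 7.44), where 5.73% of all E16 peaks passed that fold. In the adult they were found at 35 sites (18.6%, 13.3 to 24.9), where 16.8% of all adult peaks did. Both shares were thus near those of the whole lists, and isolated peaks inside genes had 2 of 180 and 24 of 152. Tall sites, taken as those with 10 or more fragments on a local background under 5 times the genome-wide value, numbered 4 at E16 and 34 in the adult. The tall adult peaks were 272 to 663 bp wide (median 283), while adult sites with fewer than 10 fragments had a median width of 163 bp, the narrowest in the list. Of the 34, 4 overlapped an E16 peak (11.8%, 3.30 to 27.5), near the 14.4% of all adult peaks that did. A further count, 29 of the 34, had no peak of MACS2 or MACS 1.4 at E16. Whole-list counts of tall peaks, and of peaks listed by neither caller at the other age, are not given here.

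Overlap with the other age was rare. At E16, 15 sites (7.89%, 4.49 to 12.7) overlapped an adult peak, where 11% of all E16 peaks did. In the adult, 16 sites (8.51%, 4.94 to 13.5) overlapped an E16 peak, where 14.4% of all adult peaks did. Isolated peaks inside genes overlapped the other age at 6 of 180 (3.33%) and 6 of 152 (3.95%). In 14 places a site was kept at both ages. These fell into 8 places with an E16 background under 5 times the genome-wide value and 6 with a higher one, described in turn.

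The site with the most enriched signal at both ages lay between Nox3, an NADPH oxidase gene of the inner ear, and Arid1b, a gene for a BAF chromatin remodelling subunit. Its E16 peak (chr17:4626191-4626693) had 24 fragments (15.4 to 35.7) and its adult peak (chr17:4626048-4626710) had 173 (148 to 201), with folds of 19.6 and 152.51. The summits were 6 bp apart, 930.2 kb from the 5′ end of Nox3 and 368 kb from the 5′ end of Arid1b, inside the long non-coding RNA gene Gm34259. The adult number was above the E16 number with no overlap of their intervals, although the adult genome-wide background was the lower.

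A second site lay in a gap of 2214 kb between Bcl11a, a zinc-finger transcriptional repressor of developing neurons and blood cells, and Fancl, a ubiquitin ligase gene of the Fanconi anaemia pathway. It had 9 fragments at E16 (4.12 to 17.1, fold 8.13, chr11:25099990-25100201) and 61 in the adult (46.7 to 78.4, fold 54.3, chr11:25099970-25100319). Its summits were 4 bp apart and 927 kb from the 3′ end of Bcl11a. The third lay between Ednrb, the endothelin receptor gene of neural crest derivatives, and Pou4f1, which encodes the sensory neuron factor BRN3A. Its numbers were 11 at E16 (5.49 to 19.7, fold 8.52, chr14:104336845-104337142) and 69 in the adult (53.7 to 87.3, fold 49.2, chr14:104336840-104337149). It sat 125 kb from the 3′ end of Pou4f1 and 492 kb from the 5′ end of Ednrb, inside the long non-coding RNA gene D130079A08Rik, with an adult local background 6.53 times the genome-wide one. At both sites, too, the adult interval lay wholly above the E16 interval.

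Between Nxph1, which encodes a neurexin ligand, and the mitochondrial gene Ndufa4, in a gap of 2651 kb, there were 7 fragments at E16 (2.81 to 14.4, fold 6.29, chr6:10186384-10186558) and 33 in the adult (22.7 to 46.3, fold 29.8, chr6:10186269-10186572). The site between Gm8882 and the salivary protein gene Prh1 had 7 at E16 (2.81 to 14.4, fold 6.51) and 20 in the adult (12.2 to 30.9, fold 18.4). At the first of these the intervals were apart, while at the second they overlapped. The site 47.4 kb from Sulf1, a heparan sulfate endosulfatase gene, and 669 kb from A830018L16Rik had 26 fragments at E16 (17.0 to 38.1, fold 16.97, chr1:12644642-12644973) and 44 in the adult (32.0 to 59.1, fold 28.8, chr1:12644654-12644968). Here too the intervals overlapped, with an adult local background 8.71 times the genome-wide one.

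The last 2 places of this kind had few fragments at both ages. Thsd7a-Tmem106b, 35.4 kb from the thrombospondin-domain gene Thsd7a, had 8 fragments at E16 (3.45 to 15.8, fold 7.32) and 9 in the adult (4.12 to 17.1, fold 8.26). Parp11-Cracr2a, beside an ADP-ribosyltransferase gene and a calcium-channel regulator gene, was the only place of the 14 under 10 kb from a gene, 9.57 kb from Parp11. It had 9 fragments at E16 (4.12 to 17.1, fold 7.86) and 7 in the adult (2.81 to 14.4, fold 6.604). Their summits were 73 and 60 bp apart between the ages, against 3 to 8 bp at the other 6 places.

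**Figure D3:**
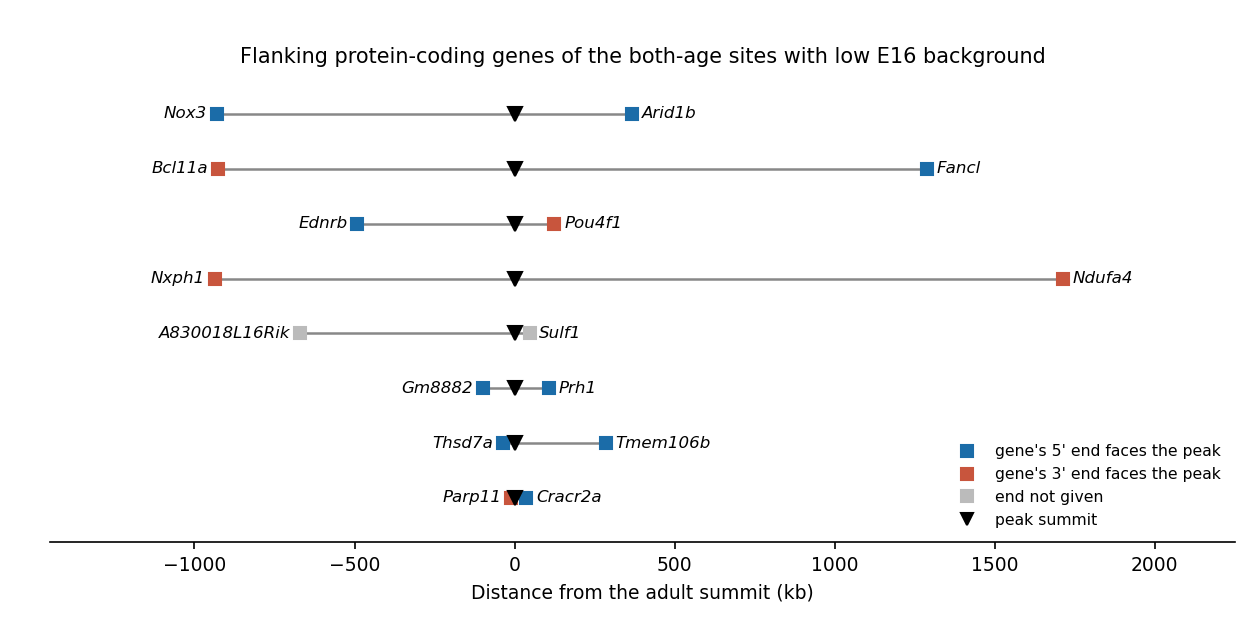
Position of the flanking protein-coding genes (squares, coloured by the gene end that faces the peak, grey where the strand was not in the table) at the 8 places kept at both ages with an E16 background under 5 times the genome-wide value, in kb from the adult summit (triangle). The Bcl11a-Fancl and Nxph1-Ndufa4 gaps span 2214 and 2651 kb, while Parp11-Cracr2a spans 46.8 kb.

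The other 6 places had a high local background at both ages, and all but LOC665918-Zfy1 had 31 fragments or more at each age. Between Rpusd4, a mitochondrial pseudouridine synthase gene, and Cdon, a Hedgehog co-receptor gene, there were 254 fragments at E16 (224 to 287, fold 16.6) and 202 in the adult (175 to 232, fold 9.35), on backgrounds 62.6 and 320.2 times the genome-wide value. Chrdl1-Pak3, beside a BMP antagonist gene and a p21-activated kinase gene on the X chromosome, had 76 (59.9 to 95.1, fold 12.0) and 63 (48.4 to 80.6, fold 8.17). Dpy19l1-Dpy19l2, between 2 genes of the DPY19 family, had 69 (53.7 to 87.3, fold 11.9) and 43 (31.1 to 57.9, fold 6.43). In these 3 places the raw adult number was no higher than the raw E16 number, unlike at the sites near Arid1b, Bcl11a and Pou4f1. LOC115489384-Rab10, 137 kb from the small GTPase gene Rab10, had 64 (49.3 to 81.7, fold 9.35) and 44 (32.0 to 59.1, fold 6.13). LOC665918-Zfy1 on the Y chromosome had 11 (5.49 to 19.7, fold 4.71) and 7 (2.81 to 14.4, fold 5.36). By raw number Axin2-Rgs9, 61.1 kb from the Wnt feedback gene Axin2, went the other way. It had 31 (21.1 to 44.0, fold 4.35) and 60 (45.8 to 77.2, fold 5.51), with intervals that did not overlap. Relative to the genome-wide background of their own age, however, both fragments and local background were higher in the adult at all 6 places. At Rpusd4-Cdon fragments were 1107 times that background at E16 and 3122 times in the adult. Over the genome-wide background, the local ones at these 6 places were 6.73 to 62.6 times higher (E16) and 7.62 to 320.2 times higher (adult), and the part of repeats or of mappability was not tested.

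A high background went with overlap in both lists. Of the E16 sites with a local background of 5 times the genome-wide value or more, 7 of 13 overlapped an adult peak, against 8 of 177 of the others. In the adult the counts were 10 of 14 and 6 of 174. The sites of high background also had more fragments, with medians of 31 against 6 at E16 and 36 against 6 in the adult. Background and fragment number therefore cannot be told apart here. In the whole lists 16.5% of E16 peaks and 14.7% of adult peaks had such a background, and their overlap is not given here. A further 3 overlaps reached a peak that was not itself kept at the other age. Ly6c1-Ly6c2, between genes of myeloid surface antigens, had 29 fragments in the adult (fold 4.62) and 58 at E16 (fold 6.27). Dbpht2-Kcnh5, 92.8 kb from a potassium channel gene, had 20 in the adult (fold 4.44) and 38 at E16 (fold 5.17). Gm41099-Gm2244, the widest site of all at 4068 bp, had 180 at E16 (fold 12.2) and 132 in the adult (fold 7.12).

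**Figure D4:**
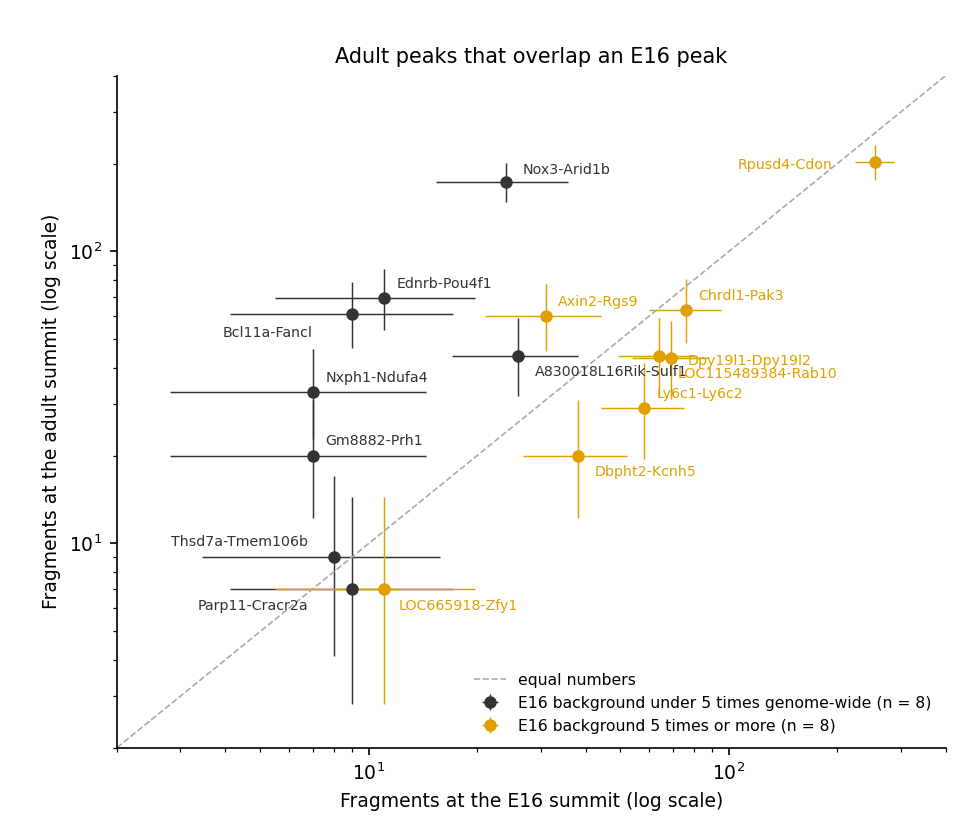
Fragments at the summit at E16 and in the adult (both log scales, bars are exact Poisson 95% intervals) for the 16 adult sites that overlap an E16 peak, dark where the E16 local background is under 5 times the genome-wide value and yellow where it is 5 times or more. The dark points of Arid1b, Bcl11a, Pou4f1 and Nxph1 lie far above the line of equal numbers, and 7 of the 8 yellow points lie below it, Axin2-Rgs9 being above. Numbers are not scaled for depth, so the line is not one of equal enrichment. Relative to the genome-wide background of their own age, fragments were higher in the adult at all 16 sites.

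Of all E16 peaks 11% overlapped the adult list, and no such share is given here for the highest ones of the whole list. Among the 12 highest E16 sites 9 did, and the other 3 had no adult peak. Smok2b-Tcp10c, between a sperm motility kinase gene and a t-complex protein gene, had 40 fragments (28.6 to 54.5, fold 10.2) on a background 13.1 times the genome-wide value. Cadm2-Speer2, in a gap of 2236 kb beside the synaptic adhesion gene Cadm2, had 9 fragments (4.12 to 17.1, fold 8.13). Cd3d-Cd3e, between 2 genes of the T-cell receptor complex, also had 9 (fold 8.13), with its summit 153 bp from the 3′ end of Cd3d. Got2-Cdh8, next in order and 267 kb from Got2, a mitochondrial aminotransferase gene, had 9 as well (fold 8.02). The last 3 of these stood 3 fragments above the median E16 site, which had 6.

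Of all adult peaks 14.4% overlapped the E16 list, and no such share is given here for the highest ones of the whole list. Among the 12 highest adult sites 5 did, and the other 7 had 24 to 38 fragments with no MACS2 peak at E16. Coro2b-Itga11, between a coronin gene and an integrin gene for a collagen receptor, had 38 fragments (26.9 to 52.2, fold 36.4, chr9:62608463-62608792). Its summit was 71.6 and 69.2 kb from the genes, which both turn their 5′ ends to it, and MACS 1.4 did list a peak there at E16. Marcks-Rfpl4b, 125 kb from the actin-binding protein kinase C substrate gene Marcks, had 34 (23.5 to 47.5, fold 32.9, chr10:37263617-37263913). Nap1l3-Cldn34c1 on the X chromosome, between a nucleosome assembly gene and a claudin-like gene, had 34 as well (fold 30.7, chrX:122831272-122831569). St6galnac5-St6galnac3, between 2 sialyltransferase genes, had 28 (18.6 to 40.5, fold 27.1, chr3:153123673-153123962), inside the long non-coding RNA gene Gm52620. All 4 of these summits lay 69.2 kb or more from a protein-coding gene.

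The remaining 3 were nearer to genes. Ccn1-Ddah1 had 26 fragments (17.0 to 38.1, fold 23.7, chr3:145690904-145691196), 41.1 kb from the 5′ end of the matricellular protein gene Ccn1. Olfr854-Olfr855, between 2 olfactory receptor genes, had 25 (16.2 to 36.9, fold 24.4, chr9:19575312-19575624), 8.09 and 9.04 kb from their 5′ ends. Alpk2-Malt1 had 24 (15.4 to 35.7, fold 23.4, chr18:65427361-65427651), 3.44 kb from Malt1, a signalling protease gene of lymphocytes. The local background at these 7 sites was 1.00 to 2.18 times the genome-wide value.

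Sites under 10 kb from a protein-coding gene had a median fold of 5.69 at E16, as in the other classes, and none of the 4 tall E16 sites. In the adult they held 5 of the 34 tall sites (14.7%), near their 15.96% of all adult sites. After Cd3d-Cd3e and Parp11-Cracr2a, the highest at E16 were Bmp5-Hmgcll1, 2.46 kb from the 3′ end of Bmp5, a bone morphogenetic protein gene, and Tex48-Tnfsf15, 9.15 kb from Tex48 (8 fragments and fold 7.32 at each). C2cd4b-C2cd4a, Clvs2-Sult3a2, E2f6-Rock2 and Pitx1-Macroh2a1 followed with 7 fragments and a fold of 6.51 each. In the adult, after the sites at Olfr854 and Malt1, Prl3c1-Prl3b1, in the prolactin gene cluster, had 17 fragments (fold 16.9) 2.36 kb from Prl3c1. Traf2-Edf1, 5.16 kb from the 5′ end of Traf2, an adaptor gene of tumour necrosis factor signalling, had 19 (fold 16.5). Zfp931-Phactr3 had 10 (fold 9.64), and Gm2012-Gm2030, Eif3h-Utp23 and Parp9-Kpna1 had 8, 7 and 24 (folds 8.45, 7.47 and 6.67). Under 1 kb from a protein-coding gene lay 4 E16 sites and 1 adult site.

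Distances here are to protein-coding genes only, and 15 of the 79 adult sites over 100 kb away lay inside a gene of another biotype. In this class the highest adult sites after Arid1b, Bcl11a, Pou4f1, Marcks, Cldn34c1 and Nxph1 dropped to 19 fragments. That site was 1700003H04Rik-Ndst4 (fold 17.5), 176 kb from the heparan sulfate sulfotransferase gene Ndst4. The most remote E16 sites were 2 in the gap of 3590 kb between Nudt12 and Efna5, an ephrin gene, 1789 and 1529.8 kb from the nearest gene (7 and 6 fragments), and 4931417E11Rik-Ctnna2, 1412 kb from the catenin gene Ctnna2 (6 fragments). The most remote adult sites were Cntnap5b-Cdh20 (1878 kb, 4 fragments), Igfbp7-Adgrl3 (1735 kb, 6 fragments) and Cdh8-Cdh11 (1486 kb, 16 fragments). Of these 6, only Cdh8-Cdh11 had more than 7 fragments, on a background 16.3 times the genome-wide value.

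Neighbouring genes were set against 15 gene lists and 3 families found by symbol. The share of intergenic bases that each list flanks was the measure of its reach. The 15 lists need not be complete, so a count covers the listed genes only, and other genes of the same kind can flank sites. At E16 359 protein-coding genes flanked a site (1.64% of the 21887), and in the adult 365 did (1.67%). The interval of the share of sites held the share of bases at both ages for all but 3 of these 18: cell adhesion genes and matrix genes in the adult, and predicted gene models at both ages. Genes of cadherins and other cell adhesion molecules, which sit in long gaps, flanked 17 E16 sites (8.95%, 5.30 to 13.9) and 6 adult sites (3.19%, 1.18 to 6.82), against 7.69% of bases. The adult interval ended below that share and the E16 interval held it. The E16 sites of this list had a median fold of 5.69, equal to that of all E16 sites, and were led by Cadm2, Cdh8, Pcdh10 and Alcam (folds 8.13, 8.02, 7.31 and 6.51). Adult examples were Cdh8 and Cdh11, Cdh7 and Pcdh19 (folds 8.27, 6.57 and 6.57).

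**Figure D5:**
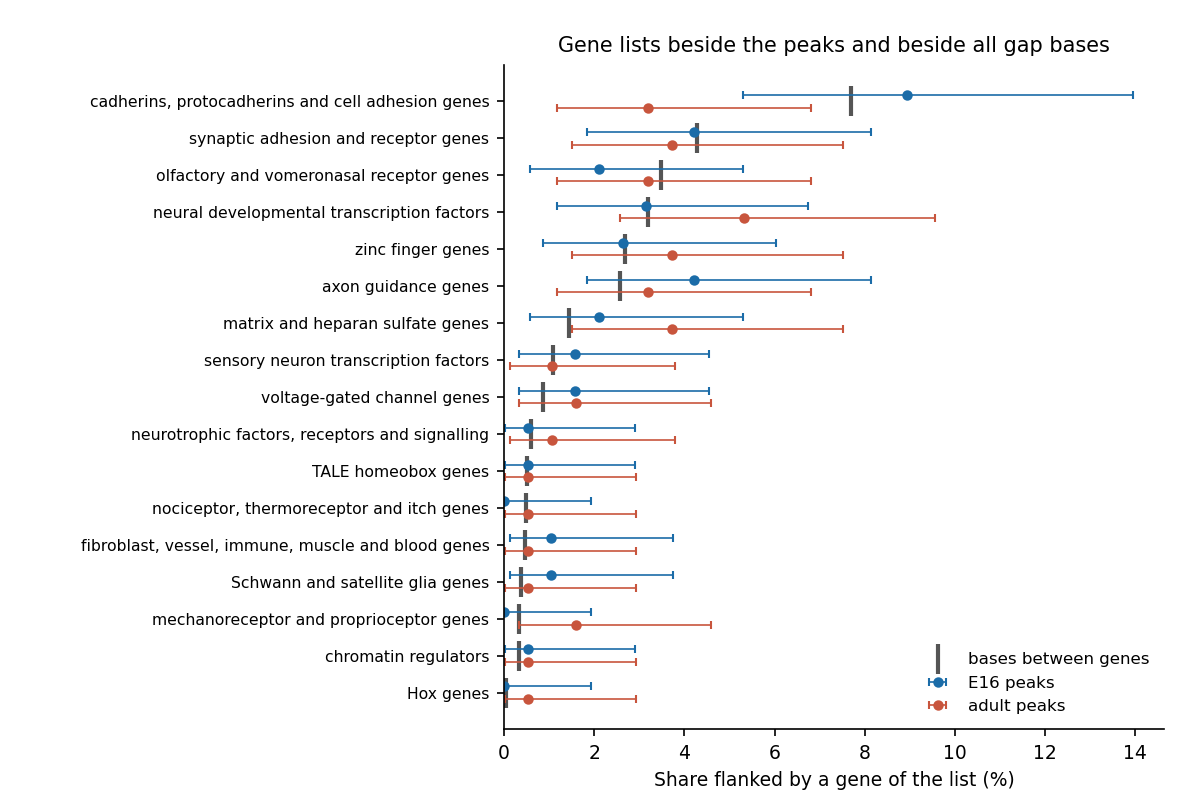
Share of sites flanked on either side by a gene of each of 17 lists and families, predicted gene models not drawn (points with exact 95% intervals, E16 and adult) and the share of bases between protein-coding genes that the same list flanks (grey ticks). Among these 17 the ticks fall inside the intervals but for the adult values of the cell adhesion list, which lie lower, and of the matrix and heparan sulfate list, which lie higher.

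Genes of the extracellular matrix and of heparan sulfate flanked 4 E16 sites (2.11%, 0.577 to 5.30) and 7 adult sites (3.72%, 1.51 to 7.52), against 1.45% of bases. The adult interval began just above that share. Its tallest members were the sites at Itga11 (38 fragments), Sulf1 (44) and Ndst4 (19), while the others, at Adamts20, Hs3st1, Adamts5 and the far side of Ndst4, had 4 to 6. At E16 Sulf1 (26 fragments), Tnc (14), Gpc5 (6) and Ext1 (6) were flanking. With 18 lists and families at 2 ages, these are descriptions and no list was tested.

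Transcription factor genes of sensory neurons were flanking at 3 E16 and 2 adult sites (1.58% and 1.06%, against 1.09% of bases). Pou4f1 and Bcl11a made up the adult pair and, with Ebf1 (6 fragments, fold 4.67), the E16 set. Neural developmental transcription factor genes flanked 6 E16 sites (3.16%) and 10 adult sites (5.32%, 2.58 to 9.56), against 3.20% of bases. These adult sites were low, with a median fold of 5.62 against 6.13 for all adult sites. The highest E16 ones lay beside Sox5, Pou3f2, Sall1 and Zfhx3 (8, 7, 6 and 5 fragments), and the adult ones included sites beside Lmo4, Nfib and Satb1 (5 fragments each).

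No site of either age had Meis1, Meis2 or Meis3 as a flanking gene. The only flanking Hox gene was Hoxc4, 49.7 kb from an adult site of 8 fragments (fold 7.02).

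Axon guidance genes flanked 8 E16 sites (4.21%, 1.84 to 8.13) and 6 adult sites (3.19%, 1.18 to 6.82), against 2.57% of bases. At E16 they were Efna5, Dcc, Sema3e, Slit2 and Epha4 (highest folds 4.88 to 6.51), with Efna5 beside 4 sites of a single gap. In the adult the highest were Dcc (11 fragments, fold 11.2), Efnb2, Efnb1 and Efna5 (7, 5 and 5 fragments). Synaptic adhesion and receptor genes flanked 8 and 7 sites (4.21% and 3.72%, against 4.28% of bases), and only Nxph1 was beside a tall site, in the adult. The others of highest fold were Grik2, Grik3 and Lrfn5 at E16 and Lrrc4c, Grin3a and Slitrk1 in the adult (5 to 7 fragments).

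Lists of sensory function were short, and each flanks under 1% of bases. Mechanoreceptor and proprioceptor genes flanked no E16 site (upper limit 1.92%) and 3 adult sites (1.60%, 0.330 to 4.59), at Kcnk2, Kcns3 and Tmem150c (7, 5 and 4 fragments), against 0.336% of bases. Of the 38 listed nociceptor, thermoreceptor and itch genes only Trpm3 was flanking, 64.1 kb from an adult site of 8 fragments. That is 0.532% of adult sites, against 0.493% of bases. The 48 voltage-gated channel genes of the list flanked 3 sites at each age, which is 1.58% and 1.60% of sites, against 0.854% of bases. Genes beside them included Cacna2d3 at E16, and Kcnh8, Cacna2d3 and Kcnh5 in the adult. Of neurotrophic factor and receptor genes Sorl1 was flanking at E16 and Ntf3, Sorcs1 and Sorcs3 in the adult (0.526% and 1.06% of sites, against 0.588% of bases). All of these sites had 4 to 8 fragments save that at Kcnh5, which had 20 on a background 57.7 times the genome-wide value. Outside the list, the voltage-gated potassium channel genes Kcna5, on the far side of the Ntf3 site, and Kcnf1 (fold 8.31) also flanked adult sites.

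For other cells of the ganglion, Schwann and satellite glia genes flanked 2 E16 sites (Ednrb and Gas1; 1.05%, 0.128 to 3.75) and 1 adult site (Ednrb; 0.532%, 0.0135 to 2.93), against 0.372% of bases. Fibroblast, vessel, immune, muscle and blood genes flanked 2 E16 sites (Cd3d with Cd3e, and Twist2; 1.05%) and 1 adult site (Col3a1; 0.532%), against 0.465% of bases. Olfactory and vomeronasal receptor genes flanked 4 and 6 sites (2.11% and 3.19%, against 3.48% of bases). Zinc finger genes flanked 5 and 7 (2.63% and 3.72%, against 2.68%), led in the adult by Zfp229 with Zfp820, Zfp825 and Zfp931 (10 fragments each). Of the 34 listed chromatin regulator genes only Arid1b was flanking, at both ages. Genes of chromatin proteins outside the list also flanked sites, such as Jarid2 in the adult (fold 9.23) and Brd7 at both ages (folds 6.29 and 5.26). Predicted gene models (symbols of the Gm or Rik kind) flanked 24 E16 sites (12.6%, 8.26 to 18.2) and 19 adult sites (10.1%, 6.20 to 15.3), in both cases below the 18.8% of bases that they flank.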

How the data were processed

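The data were the peak lists of 1 immunoprecipitated library at each age. Tools were bcl2fastq 2.17, FastQC, MACS2 2.1.1 and MACS 1.4.2, on the mm10 build, per the submitters' processing notes. The labels pair each immunoprecipitated library with the input of its age. Not given in the sources used here are the aligner, the treatment of duplicates and the settings of both callers, all of which can change fragment numbers. Each deposited MACS2 peak has a position, a summit offset in bp, a score, the fold enrichment and the −log10 of its p-value and of its q-value. For MACS 1.4 the authors deposited positions with a score.

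In MACS2 a fold is the number of fragments at the summit plus 1, over the local background plus 1, and the p-value is the Poisson tail probability. Both numbers were solved from the fold and the p-value of each peak, taking whole fragments only, and the largest difference from the deposited −log10 p was 0.000171. On simulated peaks, fragments were recovered for 200 of 200 at each age. Sequencing depth was not otherwise known. The genome-wide background is the smallest local background of a list.

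Gene bodies came from a GRCm38.p6 gene table of 49943 genes, 21887 of them protein-coding. A promoter table gave the strand and start of 17492 of these. All 613 entries of the gene lists were found. Overlap means at least 1 bp. Python 3.11.15, numpy 2.4.6 and scipy 1.17.1 were used. Shares have exact Clopper-Pearson intervals and fragments exact Poisson intervals, at 95%. The planned motif count within 100 bp of summits was not run because no genome was used here.

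Sites and gene lists were chosen with earlier results of these data known. The rule named, per age, the 12 sites of highest fold, sites overlapping a peak of the other age, up to 8 of highest fold under 10 kb and 6 over 100 kb, up to 4 flanking genes per list, the 3 most remote sites and those nearest the 10 kb limit. Got2-Cdh8, Ndst4-Ugt8a, the sites at the 2 promoter windows and places holding a site of each age were named after their values were seen. Some sites that the rule names are not reported here. Alternatives were the other caller, stricter lists, other isolation gaps, other gene sets, whole peaks in place of summits, low-background peaks alone, autosomes alone and other overlap rules.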

Additional observations from a re-analysis of the deposited data

How the results depend on the processing

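Of 124 values recomputed over 12 alternatives, 108 held. A share held if it stayed inside the main interval, and a count if it stayed within a set ratio of the main count. The other isolation gaps could change little, because the lists were nearly empty around the 10 kb limit. Most alternatives reused the same peaks, so the tally is not a measure of independent support. Under MACS 1.4 the sites numbered 655 at E16 and 404 in the adult, of which 26 and 27 overlapped the other age, but distance classes stayed within their intervals. A fold of at least 6 left 86 and 96 sites. Without peaks of 5 times the genome-wide background or more, there were 6 overlaps at each age. With genes of any biotype as boundaries, 43.5% (E16) and 45.0% (adult) of isolated peaks lay outside genes. The shares under 10 kb were then 34.2% and 34.6%, at 10 to 100 kb 50.3% and 54.2%, and over 100 kb 15.5% and 11.1%. Bases between genes of any biotype are 29.9%, 52.3% and 17.7% in these classes. No paired analysis was possible because no test was made, with 1 library in each group. Depth limits the comparison of ages: a site may be missing from a list because it fell slightly short of the calling threshold, and intervals do not cover variation between animals or libraries.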

Other observations

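Some gaps between genes held sites of both ages at different positions. Sites were found in 182 gaps at E16 and 186 in the adult, and 26 gaps held both, with a median length of 668 kb. An overlapping pair was present in 14 of them and none in the other 12. Marcks-Rfpl4b was one of the 12: its adult site of 34 fragments lay 85.7 kb from an E16 site of 5 fragments. In Brd7-Nkd1, beside the Wnt regulator gene Nkd1, the sites of the ages were 46.7 kb apart (7 fragments at E16 and 5 in the adult). Pcdh15-Rsph14 and Sim1-Lilr4b held sites 49.2 and 63.0 kb apart (5 and 5, and 7 and 5 fragments). In the Etnk1-Sox5 gap they were 183 kb apart.

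Gaps that held more than 1 site of the same age numbered 6 at E16 and 2 in the adult. The Nudt12-Efna5 gap of 3590 kb held 4 E16 sites of 6 or 7 fragments and 1 adult site of 5 fragments, none overlapping. In Ndst4-Ugt8a the adult summit was 167 bp from Ndst4, with 5 fragments (fold 5.64), and the taller Ndst4 site named above lay on the other side of that gene.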
